A study of Mus musculus with 32 samples.

Results

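The collagen chain genes were the 44 genes, of 22337 listed in the deposited gene table, whose symbol is Col, a type number, the letter a and a chain number. They were sorted by the collagen they build into 11 fibrillar chains, 8 chains of basement membranes (type IV with Col15a1 and Col18a1), 6 chains of type VI and 19 others. All 44 symbols matched the mouse annotation by identifier, and levels were compared between WT, 5xFAD and light-treated 5xFAD (5xFAD+L) mice in hippocampus, meninges and sorted meningeal lymphatic endothelial cells.

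Collagens are extracellular proteins whose chains wind around each other into a long helix, and a gene encodes a single chain. Fibrillar collagens such as types I and III form the fibers of connective tissue, type IV chains form the basement membrane, a sheet under epithelia and most blood vessel endothelium, and type VI forms beaded microfibrils near that sheet and among the fibers. Brain tissue itself holds little fibrillar collagen, whereas the meninges that wrap it are a collagen-rich connective tissue made by fibroblasts. Before secretion the chains are hydroxylated by prolyl and lysyl hydroxylases, and afterwards they are cut by propeptidases, cross-linked by lysyl oxidases, read by integrins, discoidin domain receptors and Lair1, and degraded by matrix metalloproteinases.

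The study asked what transcranial near-infrared light does to meningeal lymphatic vessels and brain tissue in a mouse model of Alzheimer's disease. The model, 5xFAD, carries human transgenes that the neuronal Thy1 promoter drives, on a C57BL/6J background. All mice were 6-month-old males. WT mice were littermates without the transgenes, 5xFAD mice carried them, and 5xFAD+L mice carried them and received repeated sessions of light through the shaved, intact scalp under isoflurane, while mice without light were anesthetized and shaved alike and kept under indoor lighting. Each library came from a single mouse: 4 WT, 4 5xFAD and 4 5xFAD+L hippocampi, then 4, 3 and 3 meninges, and sorted lymphatic endothelial cells (LECs) from 4, 3 and 3 meninges. The LECs had been sorted after collagenase digestion as cells without CD45 and with CD31 and podoplanin. Assigned counts per library ran from 13952825 to 23856476 in hippocampus, 6601143 to 14708202 in meninges and 14231415 to 24207326 in LECs, and the genes above 0 from 16371 to 18264, 17427 to 19769 and 5998 to 9020. Levels are given as FPKM, fragments per kilobase of transcript scaled to a common library total, which corrects for gene length, and a gene was called when its adjusted p in edgeR's quasi-likelihood test was below 0.05 with a change of at least 2-fold.

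The labels were checked against marker genes. In hippocampus Thy1, whose promoter drives the transgenes, read 170.3 to 188.5 FPKM in WT mice, 407 to 622 in 5xFAD mice and 434 to 522 in 5xFAD+L mice, so that no WT library overlapped a transgenic one. The other checks set some libraries apart, which are given with the results they touch or under the other observations. In the LEC libraries of WT replicates 2 and 4, Lyve1 and Pdpn, which mark lymphatic endothelium, were listed at 0, and Ccl21a, the lymphatic chemokine, read 3.54 and 0 FPKM against 4208 and 6534 in the other WT libraries. In hippocampus the choroid plexus gene Ttr exceeded 2000 FPKM in WT replicate 2 and in 5xFAD replicates 1 and 2. The listed choroid plexus markers were high in every meninges library. Their sums there were 15906 to 42173 FPKM in WT, 26260 to 33729 in 5xFAD and 29171 to 49864 in 5xFAD+L mice. Their part in the meningeal collagen levels was not tested. In meninges 5xFAD+L replicate 4 had 2195 FPKM of Bglap, the osteoblast gene for osteocalcin.

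The 3 sources differed in which collagen they carried. Mean summed FPKM of the 44 genes in WT mice was 45.4 ± 7.86 (SD, n = 4) in hippocampus and 1079 ± 129 (SD, n = 4) in meninges. In WT hippocampus the highest mean was that of Col9a3, a chain of the fibril-associated type IX, at 7.92 ± 3.64 FPKM (SD, n = 4) or 17.5% of the collagen total. Col25a1, a transmembrane collagen of neurons, followed at 5.27 ± 0.53, then Col4a2 at 4.46 ± 0.84, Col4a1 at 4.08 ± 0.73, Col19a1 at 3.25 ± 0.55 and Col6a1 at 2.93 ± 0.97, and the ranges of 1 SD around neighbours in this order overlapped. In WT meninges the type I chains led, with Col1a2 at 272 ± 52.0 FPKM (25.2% of the total) and Col1a1 at 183 ± 59.4 (16.9%), ahead of the network-forming Col8a1 at 103 ± 17.3, Col9a3 at 89.6 ± 25.6 and the fibrillar Col3a1 at 87.3 ± 23.6 (SD, n = 4 each). In WT LECs the basement membrane chains Col4a1 and Col4a2 held 75.0% and 13.7% of the collagen total, at 148 ± 90.6 and 26.9 ± 14.2 FPKM (SD, n = 4). Without replicates 2 and 4 they held 74.8% and 18.1%. The LEC values come from a separately normalized table and were set beside the others without a test.

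**Figure D1:**
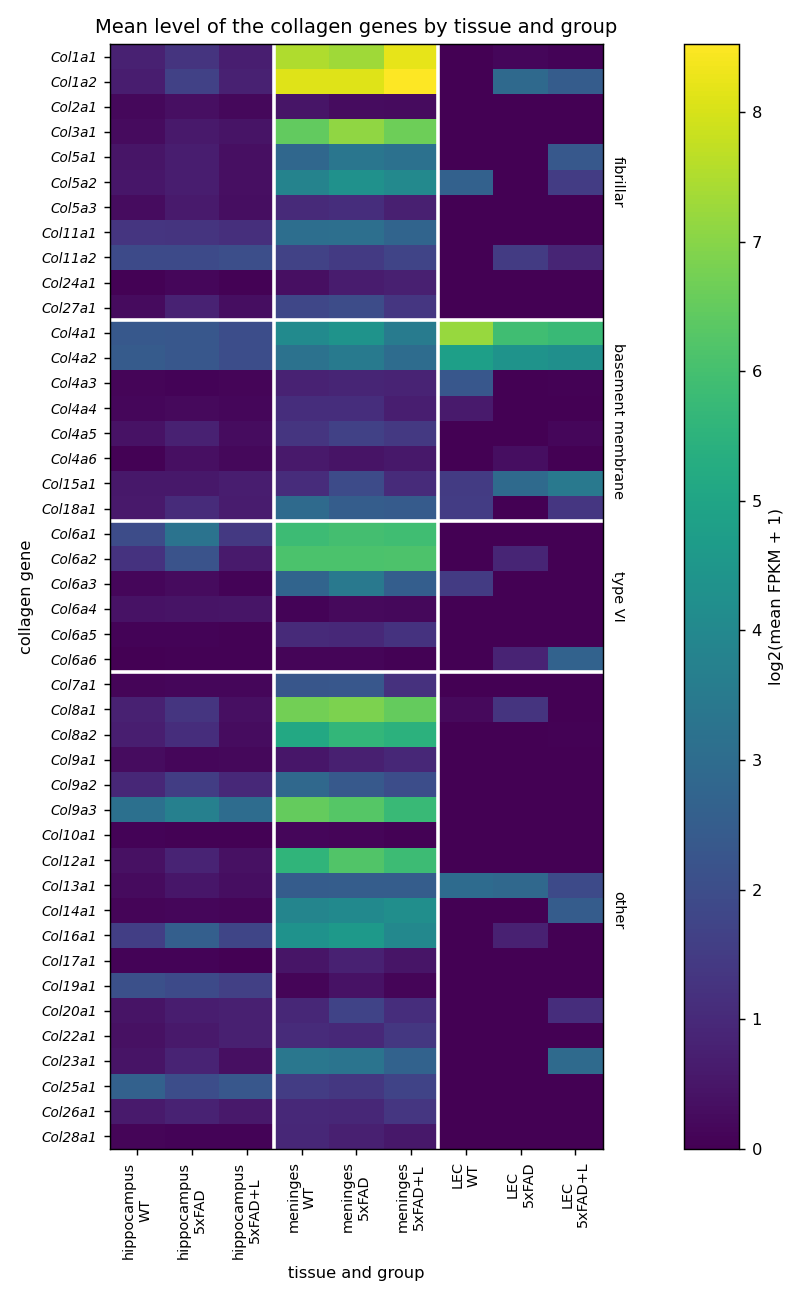
Heat map of the mean level of the 44 collagen chain genes, as log2(mean FPKM + 1), in the 9 groups of mice and tissues, with genes grouped by collagen class. Type I, III, VI and VIII chains are brightest (highest) in meninges, Col4a1 and Col4a2 carry most of the LEC signal, and hippocampus is low throughout.

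Between WT meninges and WT hippocampus, 24 of the 28 collagen genes that passed the filter on low values were called higher in meninges and 2 lower (50% of the 14144 tested genes were called, 4000 higher and 3071 lower). Genes that passed only through their meningeal level had to differ, so this count is a description. Of the 9 collagen genes with at least 1 FPKM in at least 3 WT mice of each tissue, a restriction added after the data were seen, 6 were called higher in meninges and 1 lower, beside 18.8% and 20.2% of 11031 genes. Col3a1 differed by 8.89 on the log2 scale, Col1a2 by 8.74, Col1a1 by 7.92, Col8a1 by 7.15 and Col14a1, a fibril-associated chain, by 6.83. The 2 genes called lower in meninges were Col19a1 (log2 fold change -5.37) and Col25a1 (-1.70), both expressed by neurons. Col4a1 was higher in meninges by 1.95, whereas its partner Col4a2 differed by 0.85 (adjusted p = 0.00257, edgeR), under 2-fold, and the fibrillar Col11a2 by -0.32 (adjusted p = 0.375, edgeR).

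In hippocampus, 5xFAD mice had more type I and type VI collagen mRNA than WT mice, with Col9a2 and Col16a1 also higher. Of the 15 collagen genes that passed the filter, 6 were called higher and 0 lower, where 4.28% of all 12981 tested genes were called. Col1a1 and Col1a2 passed that filter only through their 5xFAD level, and Col8a1 and Col8a2 would have failed it without that level, so the count was repeated with no filter, where 9 of the 44 were called, all higher, against 3.36% of 20292 genes; Col1a1, at 0.98 on the log2 scale, then lay under 2-fold. In that unfiltered fit the log2 fold change was above 0 for 35 of 44 collagen genes (median 0.71), among them 11 of 11 fibrillar chains (median 1.15), 5 of 6 type VI chains (1.16), 5 of 8 basement membrane chains (0.71) and 14 of 19 others (0.46), whereas 56.8% of all genes were above 0 with a median of 0.02.

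Col1a2, the second chain of type I collagen, read 0.79, 0.80, 0.40 and 0.43 FPKM in the WT hippocampi, 1.10, 2.65, 3.35 and 1.52 in the 5xFAD hippocampi and 0.63, 0.74, 0.63 and 0.90 after light. Every 5xFAD mouse was above every WT mouse, and the fold change was 3.56 (log2 1.83, SE 0.34, adjusted p = 0.00393, edgeR). As the gene passed the filter through its 5xFAD values alone, the fit with no filter bears on it, and there it was called as well (log2 1.81, SE 0.33, adjusted p = 0.00265, edgeR). Col1a1, which supplies the other chain of the same heterotrimer, read 0.96, 0.86, 0.47 and 0.59 in WT, 0.89, 1.83, 1.65 and 1.41 in 5xFAD and 0.70, 0.61, 0.40 and 0.80 after light. Its groups overlapped through 5xFAD replicate 1, and its fold change was 2.01 (adjusted p = 0.0401, edgeR). Both chains were thus near 1 FPKM or below in WT hippocampus. They lie on different chromosomes, Col1a2 at chr6:4504814-4541544 and Col1a1 at chr11:94936224-94953042 (GRCm38).

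Col6a1 and Col6a2 encode the 2 short chains that every type VI molecule holds. Col6a1 read 3.84, 2.86, 1.61 and 3.40 FPKM in WT, 12.33, 2.42, 9.11 and 10.46 in 5xFAD and 1.41, 1.69, 1.98 and 1.5 after light. Col6a2 read 2.03, 1.67, 0.56 and 1.22 in WT, 2.63, 2.07, 6.11 and 3.43 in 5xFAD and 0.43, 0.52, 0.48 and 0.66 after light. For Col6a1, 5xFAD replicate 2 lay within the WT range, while for Col6a2 all 5xFAD mice were above all WT mice, a separation seen in 8.75% of all tested genes. Fold changes between 5xFAD and WT were 2.95 for Col6a1 (adjusted p = 0.0228, edgeR) and 2.60 for Col6a2 (adjusted p = 0.0317, edgeR). Col6a3, the long chain that completes the common type VI trimer, stayed below the filter in hippocampus, with group means of 0.10, 0.19 and 0.06 FPKM in WT, 5xFAD and 5xFAD+L.

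Col6a2 (chr10:76595762-76623630) and Col6a1 (chr10:76708792-76726168) are neighbours on the minus strand of GRCm38, 85161 bases apart. Their promoters are shown with that of Col1a2 because these 3 genes had the largest hippocampal changes in both comparisons among genes past the threshold in at least one of them. Each is the stretch upstream of the RefSeq gene start that lies outside any annotated exon, 5′ to 3′ on the gene's strand, from RefSeq (GRCm38.p6); that of Col1a2 falls inside the longer gene span given above. Capitals mark GGGCGG or its reverse complement CCGCCC, the GC box.
Col6a2 (chr10:76623631-76623880): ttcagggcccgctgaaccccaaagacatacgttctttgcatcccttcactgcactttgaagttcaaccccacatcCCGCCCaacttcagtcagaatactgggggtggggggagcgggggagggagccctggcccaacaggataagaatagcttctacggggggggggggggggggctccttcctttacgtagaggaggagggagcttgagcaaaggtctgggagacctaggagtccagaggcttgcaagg
Col6a1 (chr10:76726169-76726294): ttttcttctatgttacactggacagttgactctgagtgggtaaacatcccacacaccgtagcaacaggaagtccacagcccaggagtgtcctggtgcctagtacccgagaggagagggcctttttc
Col1a2 (chr6:4505370-4505492): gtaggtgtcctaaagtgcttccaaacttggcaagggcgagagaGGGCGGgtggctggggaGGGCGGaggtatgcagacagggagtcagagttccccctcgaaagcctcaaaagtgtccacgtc
This motif stands once in the Col6a2 stretch, as CCGCCC, in 2 places in the Col1a2 stretch and nowhere in the Col6a1 stretch. Over the 300-base RefSeq windows around gene starts and on both strands, GGGCGG was found in 35.7% of 32851 windows of all genes and in 60.5% of the 38 windows of the 35 collagen genes that have one. CCAAT was found in 37.4% and 34.2%, and TATAAA in 13.6% and 13.2%.

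The other chains called in 5xFAD hippocampus are fibril-associated. Col9a2, a chain of type IX collagen, read 1.33, 0.92, 0.66 and 0.75 FPKM in WT, 1.79, 1.86, 1.93 and 2.02 in 5xFAD and 0.69, 1.15, 1.39 and 0.74 after light, with a fold change of 2.08 between 5xFAD and WT (adjusted p = 0.026, edgeR). Col16a1, which binds fibrils and integrins, read 2.22, 2.46, 1.66 and 1.56 in WT, 7.99, 3.58, 3.95 and 4.17 in 5xFAD and 2.18, 2.20, 2.80 and 2.70 after light, with a fold change of 2.47 (adjusted p = 0.0153, edgeR). The 4 5xFAD mice were above the 4 WT mice for both genes. Col9a3, a partner of Col9a2, read 5.67, 13.35, 6.70 and 5.97 in WT and 15.51, 13.52, 8.70 and 10.49 in 5xFAD, and its difference of 0.63 on the log2 scale did not pass the test (adjusted p = 0.162, edgeR). WT replicate 2 alone carried the overlap of the Col9a3 groups.

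Col25a1 moved the other way. Its product is a neuronal transmembrane collagen whose shed form binds amyloid plaques. It read 5.82, 5.55, 5.08 and 4.61 FPKM in WT, 2.31, 3.07, 3.27 and 3.54 in 5xFAD and 3.50, 5.26, 3.54 and 3.55 after light. Every 5xFAD mouse was below every WT mouse, and Col25a1 fell by 0.77 on the log2 scale (SE 0.16, adjusted p = 0.00841, edgeR), a change under 2-fold. Such a separation was seen in 1 of the 11 collagen genes that pass the filter without the values of any 1 group. Of the 12488 such genes in all, 5.97% showed it. Without the libraries rich in Ttr, Col25a1 differed by -0.63 (adjusted p = 0.141, edgeR), a setting added after the data were seen. The 7 listed neuronal markers, with Snap25 the most abundant and none at 0, summed to 2233 to 2469 FPKM in WT, 1942 to 2295 in 5xFAD and 1989 to 2135 in 5xFAD+L mice. All 7 had log2 values below 0 in 5xFAD against WT mice, with 0 of 7 past 2-fold and Gad1 at -0.46 (adjusted p = 0.0192, edgeR), and their part in the Col25a1 value was not tested. The 2 main chains of vascular basement membrane differed less between 5xFAD and WT mice, Col4a1 by -0.13 (adjusted p = 0.694, edgeR) and Col4a2 by -0.14 (adjusted p = 0.61, edgeR), and Col11a2 by 0.04 (adjusted p = 0.901, edgeR). The 4 further genes that the unfiltered fit called, all at or below 1.87 FPKM in every hippocampus, were Col3a1, Col5a3, Col27a1 and Col4a6, named here after their values were seen.

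**Figure D2:**
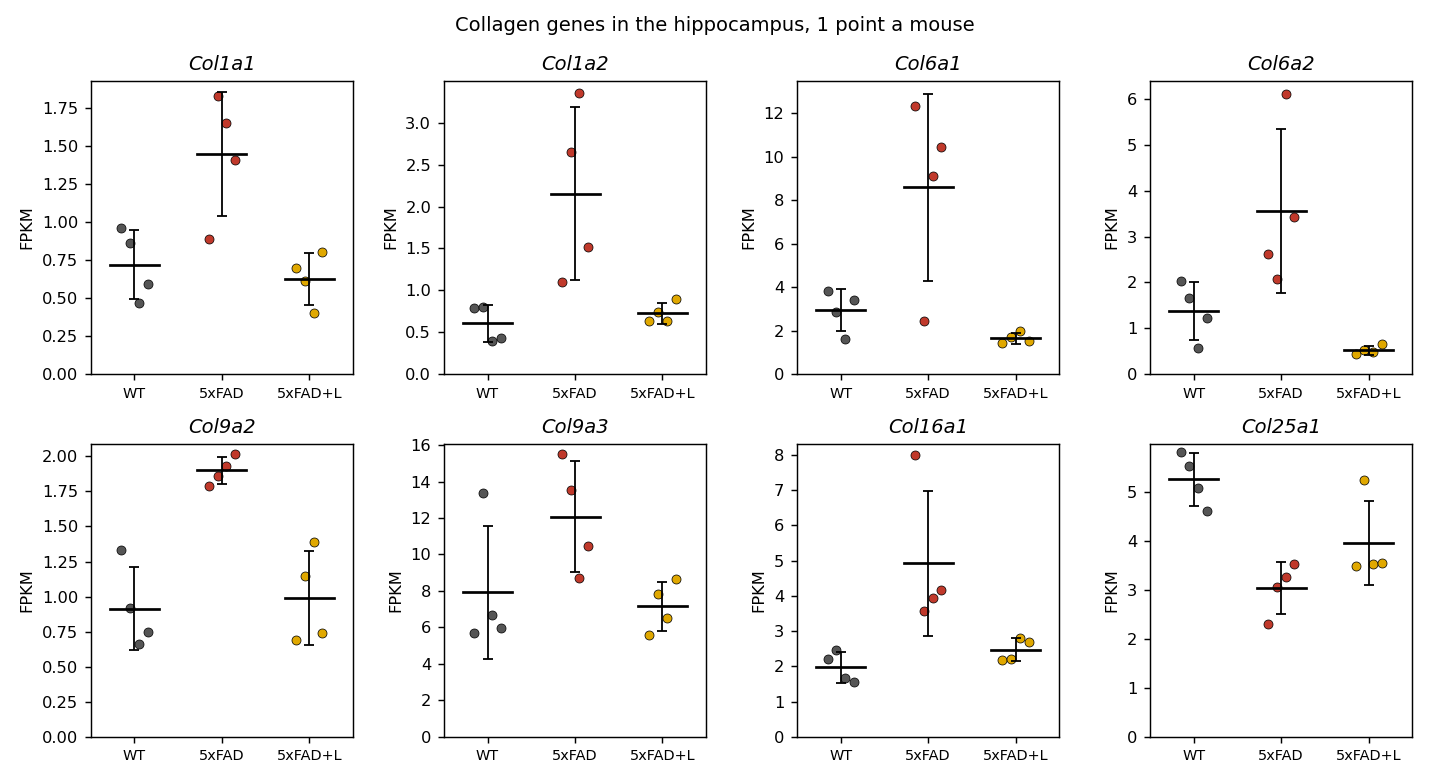
FPKM of 8 collagen chain genes in hippocampus, with a panel for each gene, a point for each mouse, a line at the group mean and a bar for the SD (n = 4 mice per group). The group means of Col1a1, Col1a2, Col6a1, Col6a2, Col9a2 and Col16a1 are highest in 5xFAD mice, while that of Col25a1 is highest in WT mice.

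Leaving out a single mouse changed several of these calls. Col1a2 was called in all 8 fits that left out a WT or 5xFAD mouse, with log2 fold changes from 1.54 to 2.04 (adjusted p from 0.0013 to 0.0199, edgeR). All of these fits kept the filter of the full set, which Col1a1 and Col1a2 passed only through their 5xFAD values. The unfiltered fit was not repeated with mice left out, so for these 2 genes the counts of fits are descriptions. Col16a1 was lost without WT replicates 3 or 4 (adjusted p = 0.0531 and 0.056, edgeR) and fell under 2-fold without 5xFAD replicate 1 (log2 0.85). Col6a1 was lost without WT replicates 2, 3 or 4 or 5xFAD replicate 1, Col6a2 without WT replicates 2, 3 or 4 or 5xFAD replicate 3, and Col9a2 without WT replicates 2, 3 or 4 or 5xFAD replicate 1. Adjusted p over these fits reached 0.0737, 0.0957 and 0.0872 for the 3 genes (edgeR), and their log2 fold changes ran from 1.31 to 1.87, 0.99 to 1.63 and 0.94 to 1.29. Col1a1 was lost without WT replicates 2, 3 or 4 or 5xFAD replicates 2 or 3, with log2 fold changes from 0.86 to 1.17. The direction was the same in every one of these fits. A fit of the 2 groups alone called 3 of the 6, and limma on log2(FPKM + 1), where a low gene's change is understated, called 0.

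Light-treated 5xFAD mice had less type VI collagen mRNA in hippocampus than untreated 5xFAD mice. This comparison shares the untreated 5xFAD mice with the one above, so a high or low 5xFAD library enters both with opposite sign. Col6a2 fell by 2.77 on the log2 scale (6.82-fold, SE 0.39, adjusted p = 0.0328, edgeR) and Col6a1 fell by 2.39 (5.23-fold, SE 0.40, adjusted p = 0.0402, edgeR), and these were the only 2 of the 15 collagen genes called, where 0.27% of all tested genes were called. Per-mouse values of both genes are given above, and no light-treated mouse reached the lowest untreated one. The summed FPKM of the 6 type VI chains was 4.80 ± 1.39 in WT, 12.8 ± 5.52 in 5xFAD and 2.69 ± 0.24 in 5xFAD+L mice (SD, n = 4 each), and 5xFAD replicate 2, at 4.64, was the one untreated 5xFAD mouse within the WT range.

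The type I chains missed the threshold after light. Col1a2 differed by -1.56 (SE 0.34, adjusted p = 0.0593, edgeR) and Col1a1 by -1.21 (SE 0.28, adjusted p = 0.072, edgeR), with all light-treated mice below all untreated ones for both. Of the 15 genes, 10 showed such a separation (Col6a2, Col6a1, Col1a2, Col1a1, Col9a2, Col8a2, Col16a1, Col8a1, Col9a3 and Col4a1), which 3.98% of all tested genes showed. Col1a1, Col1a2, Col8a1 and Col8a2 would have failed the filter on low values without the untreated 5xFAD mice, so for these 4 the filter favours this direction and the count of 10 is a description. Among the 11 genes that pass without any 1 group, 6 were separated, beside 3.75% of the 12488 such genes in all, a count made after the data were seen. For Col9a2, Col16a1 and Col9a3 the log2 differences were -0.93, -0.98 and -0.77, with adjusted p of 0.117, 0.129 and 0.162 (edgeR). For the network-forming pair Col8a1 and Col8a2 they were -2.47 and -2.34 (adjusted p = 0.132 and 0.121, edgeR). Col8a1 read 1.87, 1.96, 1.51 and 0.60 FPKM in 5xFAD and 0.26, 0.30, 0.20 and 0.32 after light, and 0.28, 2.22, 0.20 and 0.12 in WT, where replicate 2 stood alone.

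With no filter, 4 of the 44 collagen genes were called, all lower after light, against 0.31% of all genes. They were Col6a2, Col6a1, Col1a2 and Col4a5, a basement membrane chain that read 0.99, 0.36, 0.86 and 0.67 FPKM in 5xFAD and 0.31, 0.07, 0.24 and 0.23 after light (log2 fold change -1.85, adjusted p = 0.0454, edgeR). In that fit 36 of the 44 had a log2 fold change below 0 (median -0.88), namely 10 of 11 fibrillar chains (-1.20), 5 of 6 type VI chains (-1.05), 7 of 8 basement membrane chains (-0.49) and 14 of 19 others (-0.60), beside 50.0% of all genes and a median of 0.00. Summed over the 44 genes, hippocampal collagen was 66.5 ± 9.92 FPKM in 5xFAD and 37.95 ± 4.33 in 5xFAD+L mice (SD, n = 4 each). Both type VI calls depended on single mice. Col6a2 was lost without 5xFAD+L replicates 1, 2 or 4 (log2 -2.69, -2.74 and -2.90, adjusted p = 0.173, 0.154 and 0.0586, edgeR). Col6a1 was lost without these or without 5xFAD replicates 1, 3 or 4, with adjusted p of up to 0.173 (edgeR) and log2 fold changes between -2.70 and -2.13. In a fit of the 2 groups alone, where no gene at all was called, neither gene passed.

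Against WT mice, no collagen gene was called in the hippocampus of light-treated 5xFAD mice. edgeR called 0 of 15 (5 had an unadjusted p under 0.05), where 16.7% of all tested genes were under that p and 2.36% were called, and DESeq2 called 1, Col6a2. Col6a2 differed by -1.39 (adjusted p = 0.0734, edgeR), Col4a2 by -0.54 (adjusted p = 0.0719, edgeR) and Col4a1 by -0.49 (adjusted p = 0.152, edgeR). Col4a2 read 5.45, 4.02, 3.55 and 4.82 FPKM in WT and 2.72, 3.24, 3.12 and 3.14 in 5xFAD+L, and the 2 groups did not overlap. Among the 11 collagen genes that pass without any 1 group, 2 lay below WT in this way. Of the 12488 such genes in all, 7.72% did. Col25a1 differed by -0.41 (adjusted p = 0.203, edgeR).

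Some markers of cells that make collagen moved with these results in hippocampus. In bulk tissue fewer cells of a type and less RNA per cell cannot be told apart. The 15 listed markers of leptomeningeal and dural fibroblasts summed to 140.7, 194.4, 111.6 and 103.8 FPKM in WT, 218.6, 289.9, 389.4 and 176.4 in 5xFAD and 102.4, 120.3, 121.2 and 122.2 in 5xFAD+L mice. Their most abundant gene was Gjb6, Igfbp2 or Mgp, depending on the library, and Foxd1 was listed at 0 in 3 libraries. Of the 11 that passed the filter, Crabp2, Mgp and Serping1 rose in 5xFAD mice (log2 fold changes 2.30, 1.66 and 1.39). Pdgfra alone among the 11 lay below 0 there (-0.20, adjusted p = 0.405, edgeR). After light Crabp2 fell by 2.53 (adjusted p = 0.0402, edgeR) and Pdgfra differed by -0.11 (adjusted p = 0.693, edgeR). Crabp2, a retinoic acid carrier of meningeal fibroblasts, read 2.08, 1.47, 0.64 and 0.88 in WT, 3.44, 6.98, 10.63 and 4.41 in 5xFAD and 0.68, 0.92, 1.41 and 1.36 after light. The marker sum and Crabp2 were thus on average highest in 5xFAD mice, and the markers' part in the collagen result was not tested. Markers of microglia and macrophages rose in 5xFAD mice in 4 of 6 tested genes, with 0 of 6 called after light, and their 8 genes summed to 136 to 159 FPKM in WT, 266 to 347 in 5xFAD and 222 to 312 in 5xFAD+L mice. The 6 neutrophil markers summed to 1.03 to 2.07 FPKM in WT, 3.68 to 9.25 in 5xFAD and 0.44 to 3.52 in 5xFAD+L mice. S100a8, the most abundant of them in 10 of the 12 libraries, was higher in 5xFAD mice (log2 2.40, adjusted p = 0.0399, edgeR) and was the one called of 2 tested, and 9 libraries had from 1 to 3 of the 6 at 0. The 10 mural cell markers, with Vtn the most abundant and none at 0, summed to 56.2 to 69.8 in WT, 61.8 to 91.4 in 5xFAD and 51.5 to 69.8 in 5xFAD+L mice, and of 6 tested the contractile protein gene Tagln was higher in 5xFAD mice (log2 1.80, adjusted p = 0.0217, edgeR). Of the tested astrocyte markers Gfap was called (1 of 6), and of those of osteoblasts and chondrocytes Cnmd (1 of 3), both higher in 5xFAD mice. The part of each of these lists in the collagen result was not tested.

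The 8 markers of choroid plexus epithelium, with Ttr the most abundant in every library and none at 0, summed to 114.8, 2838, 414 and 37.0 FPKM in WT, 3230, 2953, 704 and 209 in 5xFAD and 132, 118, 64.9 and 247 in 5xFAD+L mice. None of the 8 was called in any hippocampal comparison. Without the 3 libraries above 2000 FPKM of Ttr, a setting added after the data were seen that leaves 2 untreated 5xFAD mice, 4 collagen genes were called higher in 5xFAD than in WT mice and 3 lower after light, where 3.31% and 0.909% of all tested genes were called in either direction. Col6a1, Col6a2 and Col1a2 were called both times, and their log2 values were 1.71, 1.88 and 2.14 in 5xFAD mice (adjusted p = 0.00849, 0.0332 and 0.0117, edgeR) and -2.55, -3.18 and -1.73 after light (adjusted p = 0.0047, 0.0113 and 0.0473, edgeR). The fourth was Col8a1 in the first comparison (log2 2.37, adjusted p = 0.0191, edgeR). This setting kept the filter of the full set, which Col1a2 and Col8a1 would have failed without the untreated 5xFAD mice. Their calls here are therefore descriptions. WT replicate 2, one of the libraries left out, was also the WT hippocampus where Col8a1 stood apart, at 2.22 FPKM. Col16a1, Col1a1 and Col9a2 were no longer called between 5xFAD and WT mice, with log2 values of 0.89, 1.15 and 1.09 there (adjusted p = 0.0656, 0.0918 and 0.149, edgeR).

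**Figure D3:**
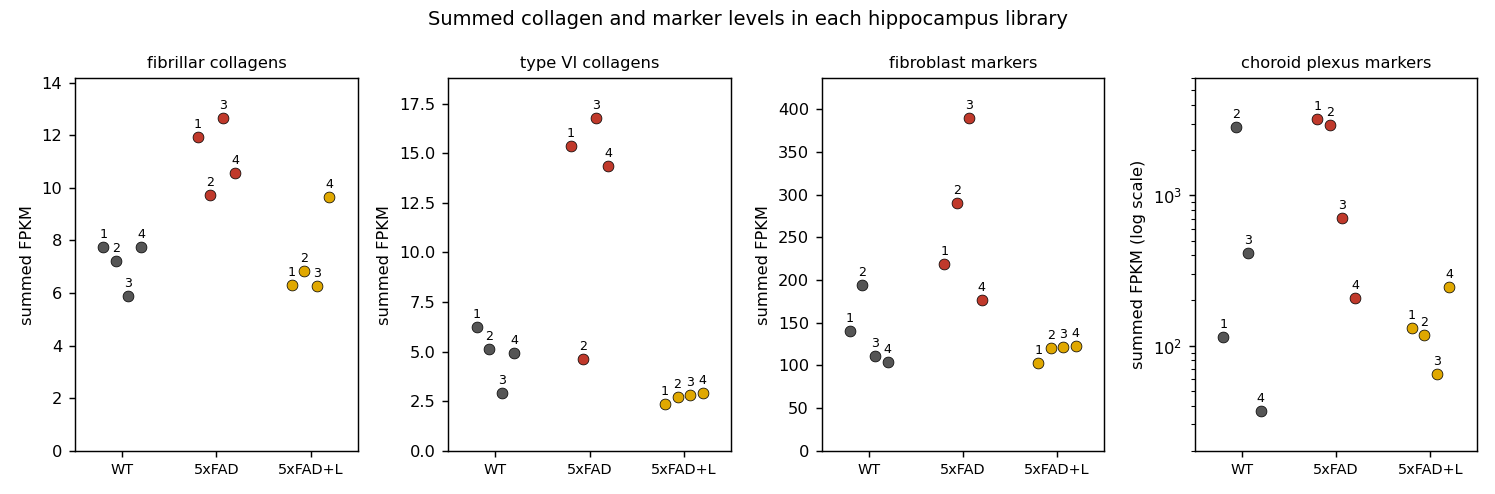
Summed FPKM in each hippocampus of the fibrillar chains, the type VI chains, the fibroblast markers and the choroid plexus markers, the last on a log axis, with a point for each mouse and its replicate number beside it. Type VI chains and fibroblast markers are on average highest in 5xFAD mice, with 5xFAD mouse 2 for type VI and 5xFAD mouse 4 for the markers within the WT range, and the choroid plexus sum exceeds 2000 FPKM in WT mouse 2 and 5xFAD mice 1 and 2.

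Genes that make, bind or cut collagen were given as lists, and their counts stand beside 4.28% of all tested genes called between 5xFAD and WT hippocampus and 0.27% after light. In hippocampus, 5xFAD mice had higher levels of 2 of 27 tested genes of collagen synthesis and processing, the prolyl hydroxylases P4ha3 (log2 fold change 1.69, adjusted p = 0.015, edgeR) and P3h2 (1.15, adjusted p = 0.0317, edgeR). Of 7 tested receptors, Lair1, an inhibitory collagen receptor of leukocytes, was higher, at 4.17 to 6.34 FPKM in WT and 17.25 to 25.99 in 5xFAD (log2 1.90, adjusted p = 2.17e-05, edgeR). Of 9 tested proteases and inhibitors, the metalloproteinase inhibitor Timp1 was higher, at 0.25, 0.53, 0.30 and 0.12 in WT and 21.80, 3.01, 3.16 and 0.95 in 5xFAD (log2 4.66, adjusted p = 0.00574, edgeR). No WT value of Timp1 reached the 1 FPKM of the filter. It was thus tested only through the transgenic groups, and its call is a description. No unfiltered result is given for the listed genes. Of 7 tested fibril-binding proteoglycans and adaptors, Fmod and Bgn, which bind type I fibrils, were higher (2.20 and 1.44, adjusted p = 0.00264 and 0.0241, edgeR). None of the tested members of these lists was called lower.

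After light, Pcolce, which speeds the removal of the procollagen C-propeptide, and Fmod were the listed genes called, both lower. Pcolce read 10.11, 14.12, 8.07 and 5.25 FPKM in 5xFAD and 2.11, 2.72, 1.76 and 2.57 after light (log2 fold change -2.06, adjusted p = 0.0482, edgeR). Fmod read 2.24, 5.83, 6.19 and 5.12 in 5xFAD and 0.68, 1.31, 1.32 and 1.10 after light (-2.13, adjusted p = 0.0482, edgeR). Untreated and light-treated mice did not overlap for either gene. Lair1 stayed above WT in light-treated mice, at 13.56 to 23.52 FPKM (log2 1.80 against WT, adjusted p = 6.39e-05, edgeR).

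In meninges, where collagen levels were far higher, no collagen gene was called between 5xFAD and WT mice. Changes near 2-fold were hard to call in this tissue. In simulated data for light against no light, 3 of 200 genes changed 2-fold were recovered in meninges and 153 of 200 in hippocampus. A count of 0 called in meninges thus does not show that levels were equal. edgeR and DESeq2 both called 0 of 33 collagen genes that passed the filter (2 had an unadjusted p under 0.05 with each tool), where 4.01% of 14318 tested genes were under that p by edgeR and 0% were called. Summed collagen was 1079 ± 129 FPKM in WT (SD, n = 4), 1174 ± 192 in 5xFAD (n = 3) and 1261 ± 300 in 5xFAD+L mice (n = 3). With no filter 27 of 44 were above 0 with a median of 0.10, beside 49.6% of all genes. Col6a3, the long type VI chain, had 7.38, 4.02, 6.21 and 5.37 FPKM in WT and 7.54, 9.72 and 12.48 in 5xFAD, and was the one collagen gene whose 5xFAD mice were all above the WT mice (log2 0.70, adjusted p = 0.987, edgeR), a separation that 2.19% of all tested genes showed.

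After light, edgeR and DESeq2 again called 0 of 33 collagen genes in meninges, with 8 and 9 at an unadjusted p under 0.05, where 12.7% of all tested genes were under it by edgeR and 0.014% were called. The basement membrane chain Col4a1 had 17.96, 18.71 and 22.16 FPKM in 5xFAD and 7.81, 11.81 and 12.70 in 5xFAD+L mice, and 20.44, 13.59, 16.01 and 12.79 in WT mice. It differed by -0.90 (SE 0.25, adjusted p = 0.286, edgeR), and Col4a2 by -0.55 (adjusted p = 0.365, edgeR). The sum of the 8 basement membrane chains was 42.1 ± 2.95 in 5xFAD and 26.9 ± 3.00 in 5xFAD+L mice (SD, n = 3 each). Col6a3 had 5.32, 3.35 and 5.77 FPKM after light, below every untreated 5xFAD mouse (-0.92, adjusted p = 0.293, edgeR). All light-treated mice were below all untreated ones for 9 of the 33 genes, and such a separation was seen in 10.7% of all tested genes. They were all above for 1 of the 33. Among the 31 genes that pass without any 1 group, 9 were below and 1 above. Of the 13397 such genes in all, 10.6% and 10.5% were, a count made after the data were seen.

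The other collagens with the smallest p after light were Col7a1, the anchoring fibril chain, Col23a1, a transmembrane chain, and Col1a1. Col7a1 had 4.83, 3.96 and 3.28 FPKM in 5xFAD and 1.84, 1.53 and 0.58 after light (-1.61, adjusted p = 0.31, edgeR). Col23a1 had 9.91, 7.88 and 8.68 and then 6.05, 5.80 and 4.27 (-0.72, adjusted p = 0.344, edgeR). Unlike these, Col1a1 was higher on average after light, with 96.3, 180.69 and 198.49 FPKM in 5xFAD and 182.51, 259.45 and 450.04 in 5xFAD+L mice (0.91, adjusted p = 0.361, edgeR). Its highest mouse, 5xFAD+L replicate 4, also had the highest Col1a2 (562.75 FPKM). In that library 9 markers of osteoblasts and chondrocytes summed to 2461 FPKM, 2195 of it Bglap, against 318 to 714 in the other 9 meninges, and their part in the type I levels was not tested. The log2 differences of the type VI pair were -0.06 for Col6a1 and 0.03 for Col6a2. With no filter 31 of 44 were below 0, with a median of -0.20, beside 50.1% of all genes.

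Against WT meninges, edgeR and DESeq2 called 0 of 33 collagen genes in light-treated mice (6 and 7 with an unadjusted p under 0.05), where by edgeR 16.4% of tested genes were under that p and 0.014% were called. The smallest adjusted p was that of Col23a1, at -0.78 (adjusted p = 0.191, edgeR), and Col4a1, at -0.56 (adjusted p = 0.261, edgeR), had all light-treated mice below all WT mice. Among the 31 collagen genes that pass without any 1 group, 2 were separated this way. Of the 13397 such genes in all, 5.22% were. No gene of the 4 lists of collagen processing, receptors, proteases and proteoglycans was called in any comparison of the meninges. The 15 fibroblast markers, most of whose sum was Mgp, ran from 9065 to 15501 FPKM in WT, 16046 to 18097 in 5xFAD and 8107 to 13358 in 5xFAD+L meninges.

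The difference between the tissues was tested directly. The effect of light in meninges minus that in hippocampus was 2.79 for Col6a2 (SE 0.57, adjusted p = 0.0332, edgeR), 2.09 for Col1a1 (SE 0.49, adjusted p = 0.0448, edgeR) and 1.98 for Col1a2 (SE 0.48, adjusted p = 0.0496, edgeR). These were 3 of the 34 collagen genes tested, where 1.05% of all 15132 genes were called, and Col6a1 at 2.30 did not pass (adjusted p = 0.0552, edgeR). For these chains the log2 effect of light was negative in hippocampus and between -0.06 and 0.91 in meninges. The calls for Col1a1 and Col1a2 were each kept in 3 of 14 fits that left out a single mouse (hippocampus 5xFAD replicate 1, meninges 5xFAD replicate 4 and meninges 5xFAD+L replicate 1), and that for Col6a2 in 9. Col6a2 was lost without meninges 5xFAD replicates 1 or 2, meninges 5xFAD+L replicate 2 or hippocampus 5xFAD+L replicates 1 or 2. Over all 14 fits the 3 genes had adjusted p of up to 0.105, 0.128 and 0.0902 (edgeR) and log2 values from 1.64 to 2.33, 1.52 to 2.24 and 2.39 to 3.06. Without 5xFAD+L replicate 4, the meninges rich in Bglap, the values were 1.64 for Col1a1 and 1.52 for Col1a2 (adjusted p = 0.099 and 0.113, edgeR).

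For the effect of the transgenes, edgeR called 0 of 34 collagen genes as different between the tissues (12 had an unadjusted p under 0.05), where 12.8% of all genes were under that p and 1.74% were called, and DESeq2 called 3, Col1a2, Col18a1 and Col3a1. Col1a2 had the smallest adjusted p, with an effect in meninges lower by 1.82 on the log2 scale (adjusted p = 0.0506, edgeR). The median of all genes in this contrast was itself -0.11.

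**Figure D4:**
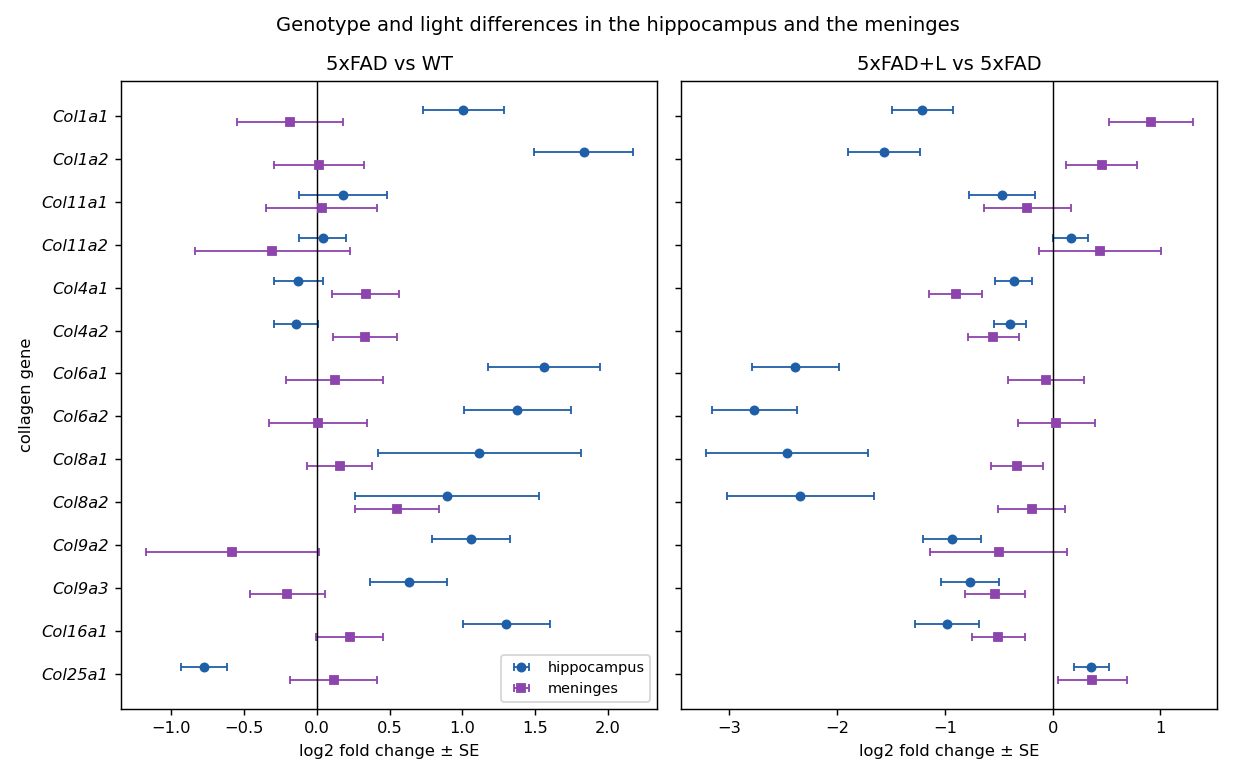
Log2 fold changes with their SE for the 14 collagen chain genes tested in both tissues, 5xFAD against WT and 5xFAD+L against 5xFAD, in hippocampus and in meninges (n = 4 mice per hippocampal group, 4, 3 and 3 in meninges). Hippocampal values of Col1a2, Col6a1 and Col6a2 lie above 0 in 5xFAD mice and below 0 after light, whereas the meningeal values are nearer to 0.

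The LEC libraries held few collagen genes. Of the 44, 19 had no counts in any LEC library and 7 passed the filter, 2 fibrillar chains, 4 basement membrane chains and 1 other. edgeR called 0 of 7 between 5xFAD and WT (1 with an unadjusted p under 0.05) and 0 of 7 between 5xFAD+L and 5xFAD (0 under 0.05), where 0% of 8188 tested genes were called in each, and 0 of 7 between 5xFAD+L and WT (1 under 0.05), where 0.0122% were called. In the same order, 3.81%, 4.01% and 6.72% of all tested genes had an unadjusted p under 0.05. DESeq2 called 1, 0 and 1 of 7, Col1a2 both times, a gene at 0.01 FPKM or below in every WT library. The spread was wide, with a biological coefficient of variation of 1.89 in LECs against 0.198 in hippocampus and 0.350 in meninges, so changes of the size seen in hippocampus were not detectable here.

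Col4a1, a chain of the basement membrane that endothelial cells lay down, led in LECs. It had 186.57, 256.79, 82.95 and 63.84 FPKM in WT, 64.01, 38.46 and 76.67 in 5xFAD and 22.07, 20.83 and 118.46 in 5xFAD+L libraries. Its difference between 5xFAD and WT was -1.10 (SE 0.71, adjusted p = 1, edgeR) and between 5xFAD+L and WT 2.01-fold lower (SE 0.71 on the log2 scale). Without WT replicates 2 and 4, which lacked the lymphatic markers, the log2 differences were -0.76 (SE 0.76) and -0.67 (SE 0.76), and 0 collagen genes were called in the 3 comparisons. The highest Col4a1 value of all was that of WT replicate 2, and the blood endothelial markers, led there by Cldn5 at 2048 FPKM, summed to 6591 in that library against 1788 to 3954 in the other 9. Their part in the Col4a1 level was not tested.

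Col4a2 had 37.25, 6.49, 27.94 and 35.98 FPKM in WT, 22.05, 22.53 and 15.08 in 5xFAD and 10.5, 0.67 and 42.57 in 5xFAD+L LECs, and the groups overlapped. The genes of this pair, Col4a1 (chr8:11198423-11312826, minus strand) and Col4a2 (chr8:11312805-11449287, plus strand), run in opposite directions and overlap by 22 bases at their starts in GRCm38. Since the libraries do not keep strand, reads from these 22 bases cannot be assigned to either gene. The remaining chains were listed at 0 in part of the libraries. Col15a1 had 0, 6.76, 0.36 and 0 in WT, 6.53, 13.48 and 0 in 5xFAD and 8.30, 0.05 and 21.36 in 5xFAD+L libraries. Col13a1, a transmembrane chain, had 0, 13.55, 8.52 and 5.4, then 8.98, 0 and 10.32, then 8.27, 0 and 0.10. Col1a2 was at 0.01 or below in all WT libraries and reached 14.02 in 1 5xFAD and 13.69 in 1 5xFAD+L library. Pdgfra, a defining fibroblast marker, was listed at 0 in every LEC library, and 9 to 14 of the 15 fibroblast markers were at 0 in each. The 15 nevertheless summed to 838 to 1939 FPKM in WT, 1562 to 2467 in 5xFAD and 1792 to 4568 in 5xFAD+L LECs. Mgp alone made up 838 to 4552 FPKM of these sums over the libraries, and the markers' part in the collagen values was not tested.

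**Figure D5:**
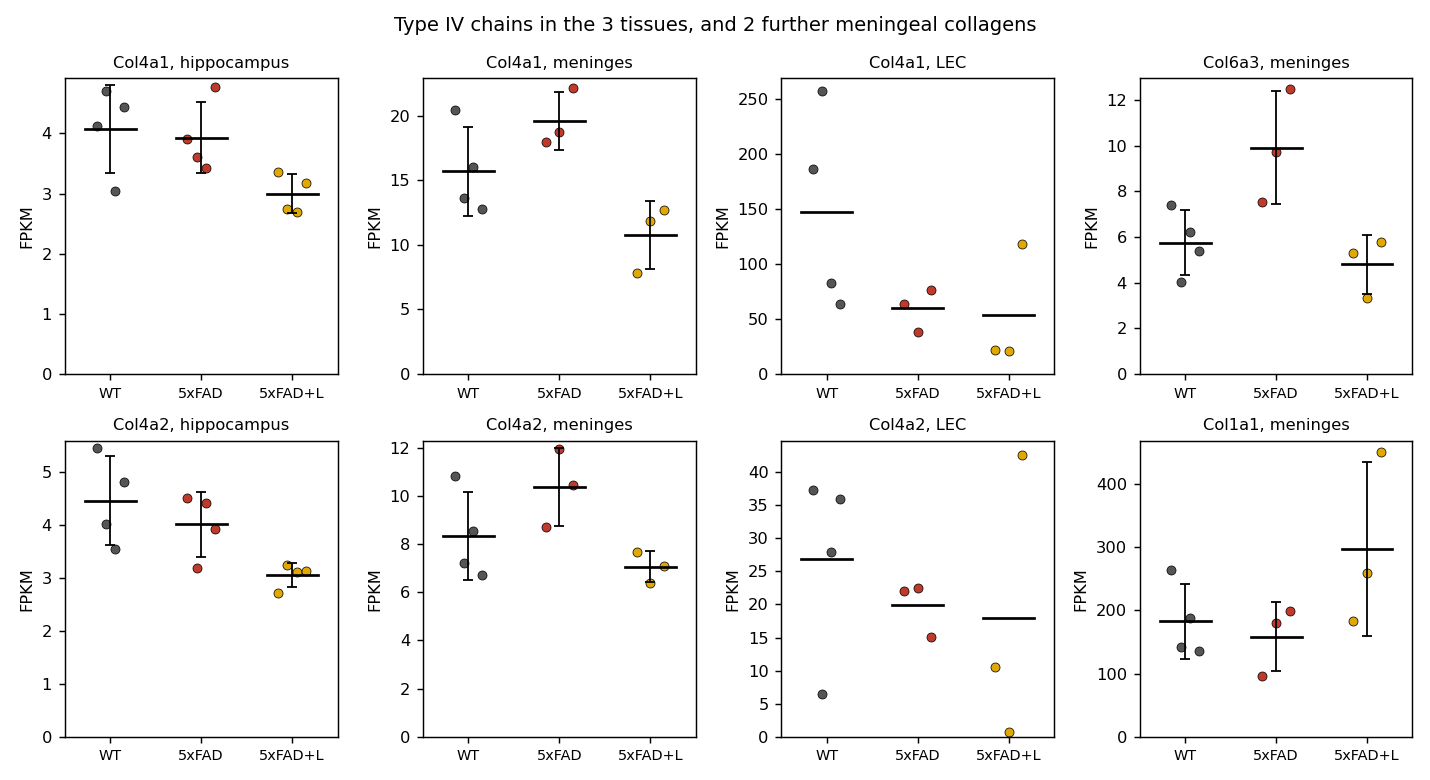
FPKM of Col4a1 and Col4a2 in hippocampus, meninges and LECs, and of Col6a3 and Col1a1 in meninges, with a point for each mouse, a line at the group mean and an SD bar in hippocampus and meninges (n = 3 or 4 mice per group). In meninges the points of Col4a1 and Col6a3 are lower in 5xFAD+L than in untreated 5xFAD mice, those of Col6a3 overlap the WT points, and Col1a1 is highest in light-treated meninges replicate 4.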

How the data were processed

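Bulk RNA-seq libraries (Smart-seq2, poly(dT)-primed, PCR-amplified, not stranded) were made from hippocampus, meninges and sorted LECs. The authors deposited 2 gene tables, each with expected counts, described here as estimated counts from RSEM per the study's methods, and FPKM, length- and depth-scaled levels that the authors computed. One holds the tissues and the other the LECs. The study's methods name fastp and RSEM, whereas the submitters' processing notes name Trimmomatic, HISAT2, StringTie, DESeq2 and mm10; which of them made the values is not settled by the sources used here. Expected counts need not be whole and were rounded.

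Tests used edgeR 4.0.16 in R 4.3.3 (glmQLFit and glmQLFTest, TMM scaling), with all 3 groups of a tissue in a single fit, genes reaching 1 FPKM in 3 samples or more, and Benjamini-Hochberg adjustment over all tested genes. A call needed an adjusted p below 0.05 and a 2-fold change; the difference of an effect between tissues needed the adjusted p alone. DESeq2 1.42.0 and limma 3.58.1 on log2(FPKM + 1) or log2(FPKM + 0.1) were alternatives. Scripts were tested on simulated data. The 2 tables were normalized separately, so that LEC levels were set beside the others without a test. Counts have no molecular identifiers and are not independent molecules. Nothing says that mice of a group were treated or processed on separate days, so the p-values measure the spread between these mice.

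The collagen genes, their classes and the lists of markers and of genes that process or bind collagen were chosen with earlier results of these data known. Genes could be named when called in a comparison of groups or tissues or when among the 3 most abundant of their class and tissue. Other grounds were the 5 smallest p of a comparison, the 5 largest tissue differences in each direction, the type I, IV and VI chains, or a value apart from its group. Not all such genes are described above. Col12a1 and Col5a1 were also called higher in WT meninges than in WT hippocampus. Col6a4 in hippocampus and Col6a6 in LECs were among the most abundant type VI chains. From the lists, up to 5 called genes a list are named, though for some lists only a count is given. Coordinates are those of GENCODE vM21 (GRCm38), and promoters are RefSeq windows found for 35 of the 44 genes.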

Additional observations from a re-analysis of the deposited data

Results flagged for a closer look

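Of 85 groups of 4 mice examined by Dixon's ratio, 8 met the ratio for a single mouse, where chance gives about 1 in 20. In hippocampus these were Col9a3 in WT replicate 2 (13.35 FPKM), Col8a1 in WT replicate 2 (2.22), Col11a1, a fibrillar chain, in WT replicate 4 (1.94), Col16a1 in 5xFAD replicate 1 (7.99) and Col25a1 in 5xFAD+L replicate 2 (5.26). WT replicate 2 and 5xFAD replicate 1 are libraries with over 2000 FPKM of Ttr, and the part of choroid plexus RNA in these values was not tested. In LECs they were Col15a1 in WT replicate 2 (6.76) and Col18a1 in WT replicate 4 (6.85), and both of these libraries lacked Lyve1 and Pdpn. The last was Col1a2 in WT LEC replicate 3 (0.01): the other 3 were at 0, so that any value above 0 would have met the ratio, and it says nothing about that library.

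The effect of light differed between meninges and hippocampus for Col6a2 (2.79 on the log2 scale), Col1a1 (2.09) and Col1a2 (1.98), by edgeR's test of the difference itself. These calls were lost in 5, 11 and 11 of 14 fits that left out a single mouse. With no filter 1 of the 3 was called (Col6a2), and with limma on log2(FPKM + 1) or the replicate block 0.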

How the results depend on the processing

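Members called numbered 6 between 5xFAD and WT hippocampus. They were 0 with a mean FPKM of at least 5 (1 collagen gene was left to test), 3 with the 2 groups fitted alone, 0 with limma on log2(FPKM + 1), and from 1 to 6 when a mouse was left out, with 1 without WT replicate 3 or 4. For light against no light in 5xFAD hippocampus (2 called) they were 4 with no filter, 0 with a mean FPKM of at least 5, 0 with the 2 groups alone and 5 with DESeq2 (Col6a2, Col6a1, Col1a2, Col1a1 and Col8a2), and from 0 to 2 when a mouse was left out, with 0 without 5xFAD+L replicate 1, 2 or 4. For 5xFAD+L against WT hippocampus (0) they were 1 with the 2 groups alone, 1 with DESeq2, and 0 to 1 when a mouse was left out. In LECs (0) DESeq2 called 1 between 5xFAD and WT and 1 between 5xFAD+L and WT. Between WT tissues (26) they were 13 with a mean FPKM of at least 5 and 26 in every fit without a mouse. For the light effect between tissues (3) they were 1 with no filter, 5 with DESeq2 (Col6a1 and Col4a5 added), 0 with limma on log2(FPKM + 1) and 0 to 4 when a mouse was left out. For the transgene effect between tissues (0) they were 1 with no filter, 3 with DESeq2 and 0 to 1 when a mouse was left out. In the meninges 0 were called under every setting run. Apart from the fits with fewer genes or fewer mice, the cause was not tested. Counts by DESeq2, here and above, stand without the share of all genes that it called, so they are descriptions.

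Replicate numbers did not pair the samples: deviations of same-numbered samples correlated at -0.244 to 0.0929 in hippocampus, -0.316 to 0.256 in meninges and -0.0398 to 0.0139 in LECs. With the replicate number as a block, 2 collagen genes were called between 5xFAD and WT hippocampus (Col16a1 and Col1a2), 1 after light in hippocampus (Col6a2) and 0 for the light effect between tissues. With the block Col13a1 after light in LECs turned from lower to higher, at 0.46.

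The other directions that turned were those of light in LECs. When a mouse was left out, Col13a1 ran from -6.23 to 0.084 (above 0 without 5xFAD replicate 4), Col1a2 from -10.1 to 0.64 (above 0 without 5xFAD replicate 2 or 5xFAD+L replicate 1 or 2), Col4a2 from -1.88 to 0.37 (above 0 without 5xFAD+L replicate 1 or 2) and Col5a2 from -0.73 to 10.9 (below 0 without 5xFAD+L replicate 1). These genes have libraries at or near 0, so the sizes depend on the prior count and are no bounds. No direction of a named gene turned in hippocampus or meninges. Over the named genes, 692 values kept their direction and side of the threshold, 53 lost the threshold and 11 gained it. Leaving out the libraries rich in Ttr, or the LEC libraries without lymphatic markers, was chosen after seeing the data.

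Groups of 3 or 4 mice limit what can be called. LECs had the same group sizes as meninges but a wider spread, with a biological coefficient of variation of 1.89 against 0.350. From 5998 to 9020 genes had counts in the LEC libraries. Levels near 1 FPKM, as for the type I chains in hippocampus, rest on few reads.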

Other observations

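Further collagen genes with pairs or triplets of partners, several of them called in comparisons above, gave these values. The 4 minor type IV chains were low in hippocampus and meninges, with group means in meninges from 0.76 to 0.86 FPKM for Col4a3, 0.63 to 1.18 for Col4a4, 1.47 to 2.12 for Col4a5 and 0.35 to 0.48 for Col4a6. Col4a3 and Col4a4, which build kidney and inner ear basement membranes, start 71 bases apart on chromosome 1 in opposite directions, and Col4a5 and Col4a6 start 1308 bases apart on X. The type VIII pair, known from corneal endothelium and vessel walls, was abundant in meninges, with group means of 90.5 to 114 FPKM for Col8a1 and 34.8 to 49.4 for Col8a2.

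Genes of collagen processing and binding were compared between WT tissues among the genes with at least 1 FPKM in at least 3 WT mice of each tissue, since genes that entered through one tissue alone had to differ. This restriction was added after the data were seen. Higher in meninges were 14 of 20 genes of synthesis and processing, 6 of 6 proteoglycans and adaptors, 4 of 6 proteases and inhibitors and 2 of 6 receptors, with 2 proteases or inhibitors and 1 receptor lower (edgeR), beside 18.8% of 11031 genes higher and 20.2% lower.

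In the LEC library of 5xFAD replicate 4, the 5 red blood cell genes summed to 12368 FPKM, against 0.31 to 511 in the other 9 LEC libraries. In meninges, the neutrophil markers reached 7347 FPKM in the highest 5xFAD+L library, against a median of 687 in that group. Their highest sums were 3025 in 5xFAD and 1496 in WT meninges. The part of either list in the collagen values was not tested.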
